A study of Mus musculus with 4 samples.

Results

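The clustered protocadherin genes were the 57 protein-coding genes of mouse chromosome 18 whose RefSeq symbols begin with Pcdha, Pcdhb or Pcdhg, out of 21887 protein-coding genes in the annotation. They fall into 3 arrays, with 14 genes in the alpha array, 22 in the beta array and 21 in the gamma array. H3K27me3, the histone mark laid down by Polycomb repressive complex 2, had been mapped by CUT&Tag, in which a transposase tethered by an antibody tags nearby DNA, in 4 libraries of sorted germinal center B cells from mouse spleen. Of these, 2 came from wild-type (WT) C57BL/6 mice and 2 from C57BL/6 mice lacking Kdm6b in B cells (KO), Kdm6b being an enzyme that removes the mark. All mice had been given sheep red blood cells, with a second dose on day 5, and were killed on day 12. For the Cre driver, the deleted part of Kdm6b, and the sex and age of the mice, the labels name nothing.

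Clustered protocadherins are cell-surface adhesion proteins of the cadherin superfamily, best known from neurons. In the alpha and gamma arrays each gene has its own promoter and a large variable first exon, which is spliced to constant exons shared by the whole array, whereas each beta gene is a single coding exon. Single neurons express a few of the genes, chosen largely at random, and the resulting surface code lets branches of the same neuron recognise and avoid each other. The C-type genes at the far end of the alpha and gamma arrays (Pcdhac1, Pcdhac2, Pcdhgc3, Pcdhgc4 and Pcdhgc5) are used more uniformly across neurons. Promoter choice involves the insulator protein CTCF, the cohesin ring and DNA methylation.

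H3K27me3 covered the gamma array in every library and was nearly absent from the alpha and beta arrays. In mm10 the alpha array spans chromosome 18 from 36930285 to 37188897, the beta array from 37264998 to 37521419 and the gamma array from 37661775 to 37841873. Peaks covered 17.5% of the gamma array in KO 1, 33.6% in KO 2, 27.2% in WT 1 and 10.5% in WT 2. The alpha array was covered to 0.896%, 0.762%, 0.276% and 0.284% in the same order. The beta array had no peak in 3 libraries and 0.186% in WT 2. Of all covered bases in the cluster with 50 kb to each side, the gamma array held 87.0%, 85.6%, 84.8% and 83.7%. The numbers 1 and 2 (replicate 1 and 2 in the plots) only name the libraries, which came from different mice.

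The arrays differed in the same direction in all 4 libraries. Gamma exceeded beta by 22.1 ± 10.3 percentage points of covered length (SD, n = 4 libraries, exact two-sided sign-flip permutation p = 0.13) and alpha minus gamma was -21.6 ± 10.1 points (exact permutation p = 0.13). Alpha exceeded beta by 0.508 ± 0.382 points (exact permutation p = 0.13). With 4 libraries 0.13 is the smallest p this test can give. All 6 array comparisons, 3 on spans and 3 on start windows, had this p and an adjusted p of 0.13. At equal covered length, reached by keeping the highest peaks of each list until its length matched the shortest list, the gamma array had 11.1% in KO 1, 19.1% in KO 2, 16.8% in WT 1 and 10.5% in WT 2. The alpha array then had no peak in KO 2 and WT 1, so alpha and beta were both at 0 there.

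Set against the genome, the gamma array was richer in the mark than most stretches of its length, while the near-empty state of alpha and beta was common. Peaks covered 5.47% of the genome in KO 1, 8.97% in KO 2, 8.08% in WT 1 and 3.86% in WT 2, with chromosomes 1 to 19 and X measured up to the last called peak. The gamma share was 3.20, 3.74, 3.36 and 2.72 times those values. Of 14593 adjoining windows as long as the gamma array, 88.7%, 90.5%, 89.0% and 86.9% had the same or a lower covered share. Of 10245 windows as long as the beta array, 45.1% to 46.6% held no peak in a given library, and 40.7% held none in any of the 4. The covered share of the gamma array had the same order over libraries as the covered length of the lists. The part of that breadth in the values of single genes was not tested by itself. Genotype fits at equal covered length, and with covered length as a covariate, are given below.

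**Figure D1:**
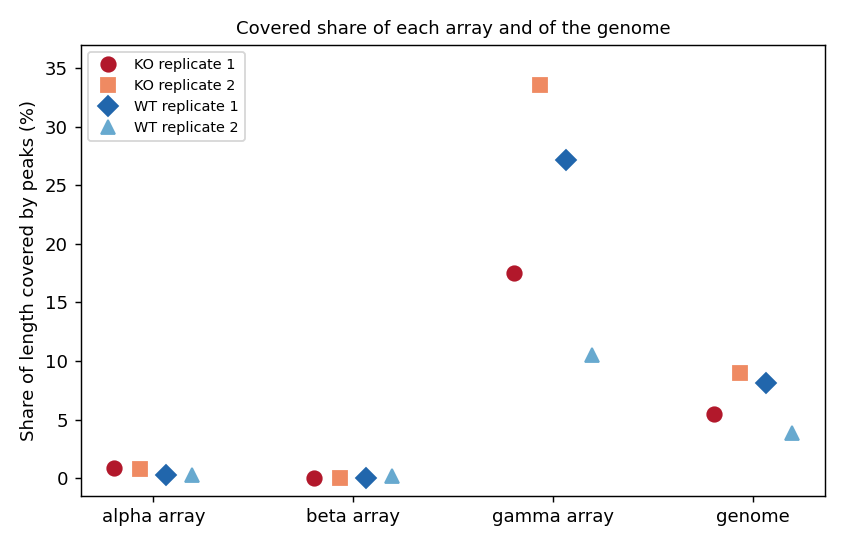
Share of length covered by H3K27me3 peaks (vertical axis, percent) for the alpha, beta and gamma arrays and for the genome, with 1 symbol per library. Gamma values run from 10.5% to 33.6% and lie above the genome value of their own library, while alpha and beta values lie below 1%.

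To describe single genes, the share of bases covered by peaks was taken from 2 kb before to 2 kb after the start coordinate. The annotation table gives no strand. All genes of the cluster are read in the same direction, known from the literature, so the start coordinate stands for the 5′ end. In the table all 21 gamma genes end between 37841863 and 37841873, and 13 of 14 alpha genes between 37187657 and 37187663, where the shared constant exons lie. A start window covered to at least 25% is called marked below. No start windows within an array overlapped, the smallest spacing between neighbouring starts being 5413 bp in alpha, 4222 bp in beta and 4154 bp in gamma. Members of an array are close copies, the handling of reads that map to several of them is not stated, and its part in these values was not tested.

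In the alpha array the mark was found at Pcdhac2, the last C-type gene, and nowhere else. Its start window was covered to 57.9% in KO 1, 49.2% in KO 2, 17.8% in WT 1 and 18.4% in WT 2. The genotypes did not overlap, KO being the higher, and the window passed 25% in the KO libraries alone. A single peak accounted for each value, 2317 bp and 1970 bp long in KO and 713 bp and 734 bp long in WT, with maxima at the 58.7th, 58.9th, 41.0th and 16.7th percentile of all peaks in their own lists. The other 13 alpha genes, the C-type gene Pcdhac1 and the variable genes Pcdha1 to Pcdha12, had no covered base in their start windows in any library. From 50 kb before Pcdha1 to the Pcdhac2 peak, 262843 bp of chromosome 18 (36880285 to 37143127) held no peak in any library.

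In the beta array 21 of 22 start windows had no covered base in any library. The remaining gene, Pcdhb3, had 11.9% in WT 2 and 0% in the other 3 libraries, from a peak of 478 bp at 37302146 to 37302623. Pcdhb1, Pcdhb10 and Pcdhb11 were among those at 0%. From that peak onward, 344614 bp (37302624 to 37647237) were free of peaks in all 4 libraries, a stretch that takes in all later beta genes and the solute carrier gene Slc25a2 and Taf7, which encodes a subunit of the general transcription factor TFIID.

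In the gamma array 20 of 21 genes had coverage in some library, and Pcdhga3 had none. At the 25% mark, 10 gamma genes were marked in KO 1, 16 in KO 2, 10 in WT 1 and 5 in WT 2. Over all 21887 genes the marked shares were 22.7%, 33.2%, 28.9% and 17.3%, and over the whole cluster 11, 17, 10 and 5 of 57 genes were marked. The start coordinate is the 3′ end for genes on the other strand. Among 17549 genes with a known strand or in the cluster, 29.5%, 41.9%, 36.8% and 22.8% were marked at the 5′ end. Mean covered share over the 21 gamma start windows was 28.3%, 49.9%, 39.6% and 15.9%, against 4.14%, 3.52%, 1.27% and 1.31% over the 14 alpha windows. Gamma exceeded beta by 33.3 ± 14.9 points on this measure (SD, n = 4, exact sign-flip permutation p = 0.13), and alpha exceeded beta by 2.42 ± 1.65 points (exact permutation p = 0.13), through Pcdhac2 alone.

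Marked in all 4 libraries were 5 members, all of them gamma genes. That is 5 of 57 members and 5 of the 21 gamma genes, beside 15.5% of all genes at the start coordinate and 20.7% at the 5′ end. The 5 were the variable genes Pcdhga7, Pcdhgb4, Pcdhga9 and Pcdhga11 and the C-type gene Pcdhgc3. At equal covered length Pcdhgc3 was the only member still marked in all 4. Genes of the A and B subfamilies are interspersed along the array, and both had members in this group.

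Pcdhgc3, a C-type gene, had the highest mean of all members, with a start window covered to 90.5% in KO 1, 100% in KO 2, 100% in WT 1 and 44.8% in WT 2. Its neighbour Pcdhgc4 had 52.4%, 100%, 100% and 18.9%. The last C-type gene, Pcdhgc5, had 54.4% in KO 2 and 0% in the other 3 libraries. The C-type genes of the gamma array differed widely, with means from 13.6% to 83.8%, and Pcdhac1 of the alpha array was at 0%.

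Among the variable gamma genes, Pcdhga9 had the highest mean, with 52.2% and 58.7% in KO and 61.9% and 69.9% in WT. Among the genes marked in all 4 libraries Pcdhga7 differed least between them, with 53.1%, 54.8%, 54.0% and 54.5%. At equal covered length the window was at 0% in KO 1, KO 2 and WT 1. Pcdhgb6 had 91.2%, 63.0% and 65.0% in the 3 broader lists and 0% in WT 2. The lowest values after Pcdhga3 were at Pcdhgb2, with 14.0% in WT 2 and 0% elsewhere, and at Pcdhga4, with 12.2% and 2.55% in WT and 0% in both KO libraries.

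**Figure D2:**
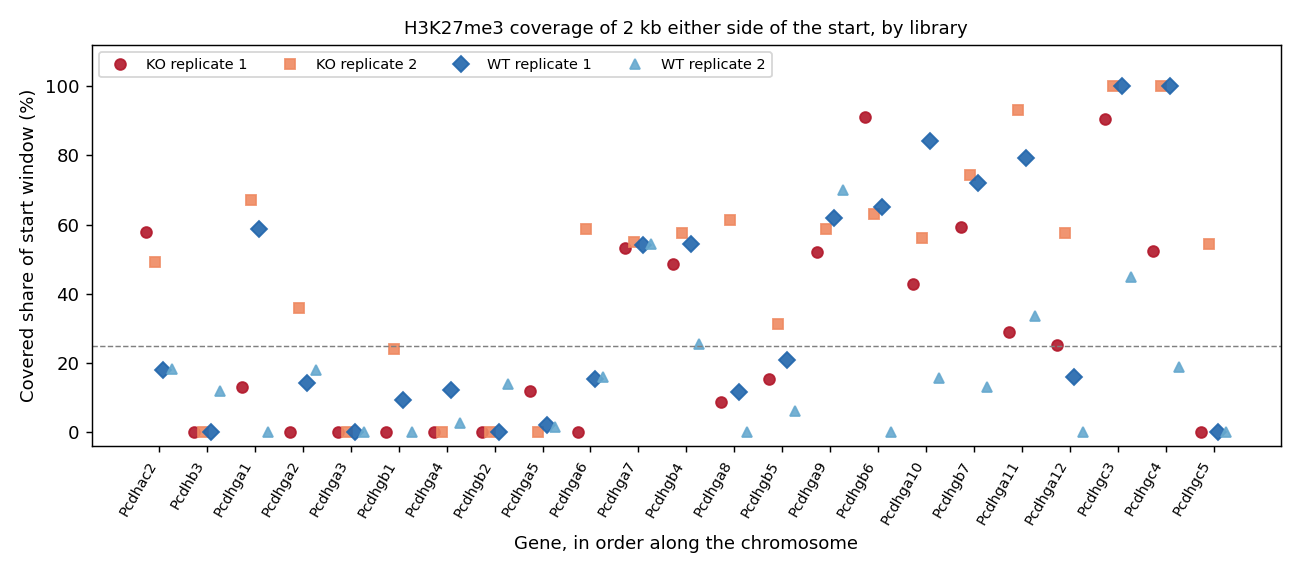
Covered share of the start window (vertical axis, percent) for Pcdhac2, Pcdhb3 and the 21 gamma genes in chromosomal order, with 1 symbol per library and a dashed line at 25%. Pcdhga7, Pcdhgb4, Pcdhga9, Pcdhga11 and Pcdhgc3 lie above the line in all 4 libraries, and Pcdhga3 lies at 0% in all 4.

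Within the gamma array the mark was unevenly placed. After the values were seen, the array was divided at Pcdhga7 and at Pcdhgc3, so these numbers are a description. The 53059 bp from Pcdhga1 to before Pcdhga7 were covered to 3.74% in KO 1, 17.4% in KO 2, 10.6% in WT 1 and 6.41% in WT 2. The 91576 bp from Pcdhga7 to before Pcdhgc3 were covered to 25.3%, 40.8%, 37.6% and 13.8%. The 35464 bp from Pcdhgc3 to the array's end had 18%, 39.1%, 24.9% and 8.01%. In each library the middle stretch had the highest share. Of the 8 genes before Pcdhga7, 0 were marked in KO 1, 3 in KO 2, 1 in WT 1 and 0 in WT 2. Of the 9 genes from Pcdhga7 to Pcdhga11, 7, 9, 7 and 4 were.

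Peaks of the gamma array lay mostly downstream of gene starts, in the direction of the variable exon. In the 2 kb after the start the mean covered share over the 21 gamma genes was 42.2% in KO 1, 72.1% in KO 2, 53.0% in WT 1 and 27.2% in WT 2. In the 2 kb before it the values were 14.3%, 27.7%, 26.2% and 4.63%. The difference was 30.4 ± 9.58 points (SD, n = 4 libraries, exact two-sided sign-flip permutation p = 0.13, adjusted p = 0.13 over 3 gene groups), and 20 of 21 genes had the higher mean after the start, the other being Pcdhga3. Coverage was highest between 1500 and 2500 bp after the start in each library, with 49.4%, 75%, 68.2% and 38.5% from 1500 to 2000 bp, and fell to 4.76% to 21.8% between 3000 and 3500 bp. Of 22, 21, 22 and 18 peaks, 18, 18, 16 and 17 had their highest point after the nearest gamma start, at a median offset of 1630, 1999.5, 1563 and 1582 bp. With a median spacing of 5369 bp between starts, the coverage more than 2 kb before a start belongs in part to the gene before it.

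**Figure D3:**
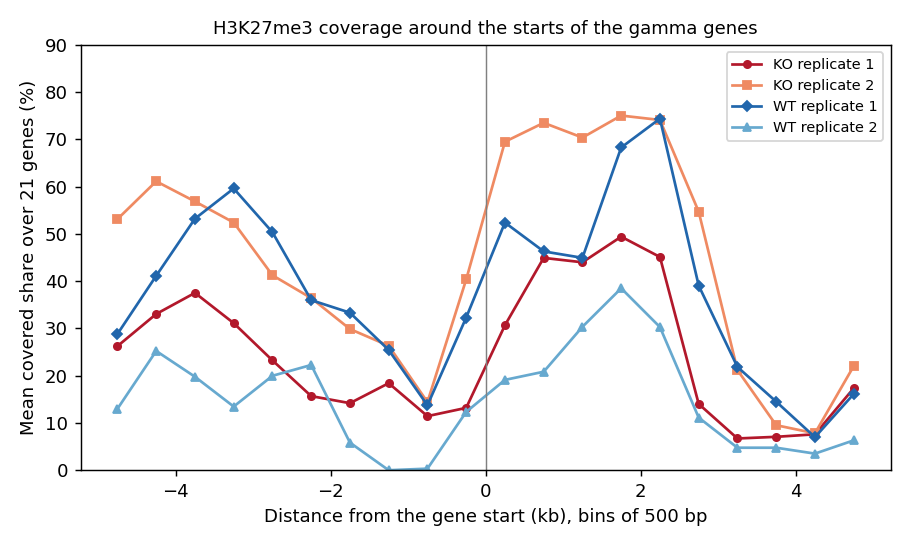
Mean covered share over the 21 gamma genes (vertical axis, percent) in bins of 500 bp from 5000 bp before to 5000 bp after the gene start (horizontal axis, kb), with 1 line per library. Each line dips between 1500 and 500 bp before the start, is highest within the 2500 bp after it and is lower again beyond 3000 bp. The second rise on the left lies over the preceding genes.

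The gamma peaks were of middling strength for their lists. The median percentile of their maxima was 46.7 in KO 1, 72.1 in KO 2, 65.3 in WT 1 and 67.2 in WT 2, and the highest lay between 95.7 and 96.1. The highest gamma peak was nearest to Pcdhgb6 in KO 1, to Pcdhgc3 in KO 2 and to Pcdhga10 in both WT libraries. Median widths were 994, 2925, 1344 and 763 bp, beside 1140, 1557, 1512 and 861 bp for all peaks of the same lists. These signal values are the authors' and were used to rank peaks within a list.

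The marked stretch began before the first gamma gene and ended before the array did. Its first peak started 12420 to 14537 bp before Pcdhga1, and 3033 to 5150 bp beyond the end of Taf7, depending on the library. The space between the beta and gamma arrays was covered to 1.69% in KO 1, 5.83% in KO 2, 5.72% in WT 1 and 1.75% in WT 2, all of it in those last bases before Pcdhga1. The last peak ended 13510 and 15168 bp before the array's end in KO and 24542 and 26012 bp before it in WT. In both KO libraries the last peak thus ended nearer to the array's end than in both WT libraries, a comparison chosen after the values were seen and not tested. In KO 1 that last peak was 955 bp long, with its maximum at the 11.6th percentile of its list. The KO 1 peak before it ended at 37816624, between the last WT ends of 37817331 and 37815861. The gene beyond the array, Diaph1, encodes a formin that nucleates actin filaments, and no peak lay in the 50 kb after the array. Diaph1 runs on past those 50 kb, and its more covered end had 14.2% in KO 2 and 0% in the other libraries. Taf7 and Slc25a2 had no covered base in their bodies or at either end.

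Bases of the gamma array were shared unequally between libraries. Of 73077 bp covered in any library, 10859 bp (14.9%) were covered in all 4. The longest such stretch, 2317 bp at 37714708 to 37717024, lay over the start of Pcdhga7. The next, 1928 bp at 37807309 to 37809236, began 899 bp after the start of Pcdhgc3. A further 1444 bp at 37737003 to 37738446 began 67 bp after the start of Pcdhga9. The KO pair shared 2102 bp that no WT library covered, and the WT pair 849 bp that no KO library covered. The same count was not made over the genome, where the lists covered 144 and 236 Mb in KO and 213 and 101 Mb in WT. Whether these bases differ by genotype beyond the breadth of the lists was not tested. The bases shared by the KO pair were 87.2% of those covered in KO 1 and 45.5% of those in KO 2. For the WT pair they were 31.8% and 82.3%, and for KO 2 with WT 1 they were 68.7% and 84.8%.

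No array passed a test of KO against WT, which could not pass with 2 mice per genotype. The gamma, beta and cluster differences were smaller than the spread between mice, and the alpha difference, which is Pcdhac2, was larger. Mean gamma coverage was 25.5% ± 11.3 with Kdm6b deleted and 18.8% ± 11.8 in wild type (SD, n = 2 each), a difference of 6.70 points (exact two-sided permutation p = 0.667, where the smallest possible is 0.33). The difference turned to -1.32 points without KO 2 and to -1.65 without WT 2, and was 1.44 at equal covered length. For the whole cluster with 50 kb flanks the values were 5.28% ± 2.4 and 3.97% ± 2.46 (difference 1.31 points, exact permutation p = 0.667). The alpha array, through the Pcdhac2 peak alone, had 0.829% ± 0.0949 in KO and 0.280% ± 0.00574 in WT (difference 0.549 points, exact permutation p = 0.33). At equal covered length the alpha array had 0.896% and 0% in KO and 0% and 0.284% in WT. The genotypes then overlapped, with a difference of 0.306 points. In the beta array KO was at 0% and WT at 0.0932% ± 0.132 (exact permutation p = 1). Over these 4 comparisons the adjusted p was 0.889 for alpha, gamma and the cluster and 1 for beta.

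No member passed the genotype test across genes. Of the 10438 genes with a covered base in some start window, limma called 0% higher and 0% lower in KO at an adjusted p of 0.05, with 365 higher and 57 lower when p was left unadjusted at 0.05. The cluster gave 22 of these genes, with a median difference of 10.3 points beside 6.56 points over all genes tested. At equal covered length these medians were 4.41 and 1.74 points, with 239 genes higher and 134 lower at an unadjusted limma p under 0.05. When the fit also held the covered length of each list they were 3.66 and 2.08 points, with 229 and 157 genes. The member median was -4.59 points without KO 2, 1.25 without WT 2, 23.7 without KO 1 and 27.4 without WT 1. In the main fit Pcdhac2 was the only member with an unadjusted p under 0.05, with means of 53.6% ± 6.13 for KO and 18.1% ± 0.371 for WT (SD). Its difference was 35.5 points (SE 5.31, limma adjusted p = 0.905). At equal covered length its values were 57.9% and 0% in KO and 0% and 18.4% in WT, so the groups then overlapped.

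The genotypes did not overlap at 4 members, 2 with KO the higher and 2 with KO the lower, beside 13.9% and 2.60% of all genes tested. Above were Pcdhac2 and Pcdhga12, a variable gamma gene with 25.1% and 57.7% in KO and 16.1% and 0% in WT (difference 33.3 points, SE 15.5, limma adjusted p = 0.905). Below were Pcdhga4, at the low values given above, and Pcdhga9, with a difference of -10.5 points (SE 5.78, limma adjusted p = 0.905). The Pcdhga9 difference turned to 13.2 points with 5000 bp either side and kept its direction in 7 of 8 alternatives. At equal covered length it was -37.0 points, with 0% and 57.8% in KO and 61.9% and 69.9% in WT, still without overlap. The Pcdhga12 difference was 9.38 points with 5000 bp either side and 17.0 without KO 2. At equal covered length the genotypes no longer stood apart at Pcdhga12, with 0% and 45.8% in KO and 0% in both WT libraries, or at Pcdhga4, with 0% in both KO libraries and 0% and 2.55% in WT. The Pcdhga4 difference was -2.55 points without WT 1, -12.2 without WT 2 and 0 with 1000 bp either side. The largest difference in favour of KO was at Pcdhgb6, with 44.6 points (SE 29.5, limma adjusted p = 0.905), which fell to 12.1 without WT 2. At 2 mice per genotype, a missing call is no proof of equal coverage.

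The protocadherins outside the cluster, which are single genes with long ectodomains, were mostly either highly covered at an end or barely covered. Of 12 such genes, 7, 7, 7 and 6 were marked, taking the 5′ end for the 9 with a known strand and the more covered end for the others, a choice that can only raise a value. Of all genes with a known strand 29.5%, 41.9%, 36.8% and 22.8% were marked at the 5′ end. Pcdh1 and Pcdh12, which also lie on chromosome 18, were covered to 100% in all 4 libraries, and Pcdh8 to 100%, 100%, 100% and 89.6%. Pcdh7, Pcdh17 and Pcdh19 were marked in all 4 as well. Pcdh10 had 99.8%, 99.8%, 88.6% and 21.9%. Pcdh11x, Pcdh18 and Pcdh20 had no coverage, and Pcdh9 and Pcdh15 had 3.55% and 8.22% in WT 2 and 0% in the other 3 libraries. The difference between the clustered and non-clustered genes was not tested.

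Genes known to act on the clustered promoters were marked in shares near or below those of all genes. Of 21 listed, 17 of them with a known strand, 5, 7, 6 and 2 were marked in KO 1, KO 2, WT 1 and WT 2, beside 29.5%, 41.9%, 36.8% and 22.8% of all genes at the 5′ end. For 8 of them the end window had no covered base in any library. Among these were Ctcf, the cohesin genes Rad21 and Stag2, Smchd1, which encodes a repressor of the cluster, and Dnmt1, the maintenance DNA methyltransferase gene. Of the 8, Smchd1, Ehmt1 and Ehmt2 had covered bases elsewhere in the gene body, up to 15.4% for Ehmt2 in KO 2. Marked in all 4 were Dnmt3a, a de novo DNA methyltransferase gene, with 100%, 100%, 100% and 85.3%, and Tet1, a gene for an enzyme that oxidises methylcytosine, with 87.1%, 88.8%, 87.1% and 81.3%. Dnmt3b, the methyltransferase gene best known for methylating these promoters, had 52.2%, 92.0%, 71.1% and 22.9%. Lrif1, whose product binds Smchd1, had 65.5%, 75%, 60.5% and 23.0%, and Tet3 had 43.8%, 59.8%, 54.3% and 24.5%. For each of these 5 genes WT 2, the list with the least covered length, was the lowest, and none was called by limma (adjusted p from 0.884 to 0.889).

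As a check of the labels, 0 of 12 B cell genes were marked in all 4 libraries, against 5 of 6 T cell genes, 4 of 5 myeloid genes and 20.7% of all genes at the 5′ end. By library, 1, 3, 0 and 0 of the B cell genes were marked. The strand is known for all T cell genes, 8 of 12 B cell genes and 3 of 5 myeloid genes. The others take their more covered end, which can only raise a value. Ms4a1, which encodes the surface protein CD20, had 33.5% and 41.9% in KO and 0% and 14.3% in WT, and Cd79a and Cd79b, genes of the B cell receptor complex, were marked in KO 2 with 25.2% and 34.8%. The germinal center genes Bcl6 and S1pr2 had no coverage in any library. Kdm6b itself was covered over 41.3%, 66.6%, 49.6% and 36.7% of its body, which does not check the deletion. The lists held 80639 to 90417 peaks over 101.4 to 236 Mb, and since the files hold no read numbers, their depth is unknown and no counting error could be given.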

How the data were processed

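The 4 deposited peak lists gave the position, total signal and highest signal of each peak. Both are signal (coverage) values on a scale the authors did not state, and each list covers 1 library. Per the submitters' processing notes, the tools included Bowtie2 2.4.2, SEACR, deepTools, SAMtools 1.11 and Trim Galore 0.6.6, on mm10. The sources used here do not give settings or the control for peak calling. Within each library, overlapping peaks on the autosomes, X and Y were merged, and the percentage of bases covered was computed for windows, gene bodies and arrays on RefSeq GRCm38.p6 (21887 protein-coding genes). The read-through models Gm37013, Gm38666 and Gm38667 and the pseudogene Pcdhgb8 are no members. Strands came from the RefSeq promoter table where it lists the gene. Genotype was tested over all genes with limma 3.58.1 (lmFit, eBayes, Benjamini-Hochberg) in R 4.3.3, leaving out genes without coverage. Single values were compared by exact permutation. The coverage arithmetic and the limma step were tested on simulated data. The limma simulation had less noise than many members show between mice, for example an SD of 57.3 points in WT at Pcdhgc4. It does not show what the test can find in these data. Members and lists were chosen with earlier results of these data known. Genes shown by library were, per array, the 3 highest and 3 lowest mean start windows, the C-type genes, members whose genotypes did not overlap and the largest differences. Python 3.11.15, numpy 2.4.6, pandas 2.3.3 and matplotlib 3.10.9 were used. Alternatives were other window sizes, thresholds, flanks, stricter peaks, equal covered length, covered length as a covariate, no filter, whole bodies and leaving out each library. The 5′ end by strand, the alternatives for single members and those for coverage after against before the start were added after the data were seen.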

Additional observations from a re-analysis of the deposited data

How the results depend on the processing

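All 6 array differences and the excess of gamma coverage after the start kept their direction under every alternative run for them. Gamma minus beta ranged from 14.3 to 26.1 points on spans and from 23.2 to 39.2 on start windows, and alpha minus beta from 0.248 to 0.644 on spans. The excess after the start ranged from 17.3 to 33.0 points. The count of 5 members marked in all 4 libraries was less stable. It was 3 with 5000 bp either side, 1 at equal covered length, 9 at the 10% threshold, 2 at 50% and 0 over whole bodies, and leaving out 1 library gave 5 to 9, the 9 without WT replicate 2. For KO minus WT, leaving out 1 library gave -1.65 to 15.0 points for the gamma array and -0.425 to 3.05 for the whole cluster. Both values were below 0 without KO replicate 2 (-1.32 and -0.385) and without WT replicate 2. The beta difference ranged from -0.186 to 0, with 0 without WT replicate 2. Limma called 2 genes higher over whole bodies, and 14 higher and 4 lower with no filter, where more than 50% of genes have no variance and the estimate is unreliable. No member was among them, the smallest adjusted p of a member being 1 in both limma fits. At single members, the Pcdhga9 difference turned to 13.2 points with 5000 bp either side and kept its direction in 7 of 8 alternatives. The Pcdhga4 difference was 0 with 1000 bp. The cause of these changes was not tested. No paired analysis was possible because the replicate numbers only name libraries in accession order. Read depth was unknown, which limits what an absent peak shows.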

Other observations

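Neuron genes and the intracellular partners of the protocadherins were mixed in the mark. Of 6 neuron genes, 3, 3, 4 and 3 were marked in KO 1, KO 2, WT 1 and WT 2, beside 29.5%, 41.9%, 36.8% and 22.8% of all genes at the 5′ end. The strand is known for 4 of the 6, and the others take their more covered end, which can only raise the count. Rbfox3, which encodes the neuronal splicing factor NeuN, was covered at its 5′ end to 88.4%, 85.4%, 78.0% and 89.0%. Tubb3, a neuronal tubulin gene, had 68.1%, 89.4%, 100% and 48.2%, and Map2, a microtubule-associated protein gene, had 64.9%, 97.0%, 55.4% and 29.8%. Snap25 and Syt1, genes of synaptic vesicle release, had no coverage in any library.

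Of 7 partner genes, 2, 3, 4 and 3 were marked, beside the same shares of all genes. Only 2 of the 7 have a known strand, and the others take their more covered end, which can only raise the count. The receptor tyrosine kinase gene Ret was covered to 100% at the more covered gene end in all 4 libraries. Ptk2, the gene for focal adhesion kinase, had 46.8%, 66.0%, 66.5% and 33.1%, while its relative Ptk2b and the actin regulator gene Cyfip2 had no coverage at these windows. Cyfip1 had 0% in KO 1, 72.7% in KO 2, 98.1% in WT 1 and 31.1% in WT 2, so the KO libraries lay on either side of the lower WT value.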
